A study of Mus musculus with 40 samples.

Results

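Cyp1a1, Cyp1a2 and Cyp1b1, the 3 genes of the mouse cytochrome P450 family 1, were examined across a TCDD dose series in liver. They were chosen by symbol, mapped to their Ensembl identifiers (ENSMUSG00000032315, ENSMUSG00000032310 and ENSMUSG00000024087), and are 3 of the 55359 genes in the count tables. All 3 passed the filter on low counts, which left 15373 genes to be tested. TCDD is a dioxin and a persistent contaminant. Male C57BL/6 mice, 30 days of age at the start and 58 days at the end, were gavaged 7 times, once every 4 days, and livers were taken at 28 days. The 8 groups of 5 mice received sesame oil alone (vehicle) or TCDD in that oil, at low doses of 0.03, 0.1 and 0.3 μg/kg or at higher doses of 1, 3, 10 and 30 μg/kg. The mice carried no engineered allele that the labels name, and each of the 40 libraries was 1 liver.

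The CYP1 enzymes are haem-containing monooxygenases that oxidise planar aromatic compounds, steroids and other small molecules. Their genes are classical targets of AhR, the aryl hydrocarbon receptor, which pairs with ARNT on DNA after binding a ligand such as TCDD. CYP1A2 is a normal constituent of hepatocytes, CYP1A1 is nearly silent in liver until the receptor is activated, and CYP1B1 is known mainly from tissues outside the hepatocyte.

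Each library held between 15.5 M and 21.0 M counts in genes, and all 80 pairs of mice within a group differed by more than sampling noise (chi-square per degree of freedom of 11.1 or more). The 6 hepatocyte markers (Alb, Apoa1, Ttr, Trf, Cps1, Hnf4a) summed to between 111423 and 136783 CPM (counts scaled to a common library size) in vehicle and to between 36501 and 76966 CPM at 30 μg/kg. The 6 macrophage markers (Adgre1, Cd68, Csf1r, Clec4f, Vsig4, Timd4) went the other way, from between 108 and 153 CPM to between 306 and 591 CPM. In whole liver, fewer cells of a type and less RNA per cell cannot be told apart.

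The promoter windows of the 3 genes are shown first because the receptor pair is known to bind DNA at a GCGTG core. Each runs from 250 bases before the start to 50 after it, 5′ to 3′ on the strand of the gene, from RefSeq on build GRCm38.p6, and capitals mark that core read on either strand. Cyp1a1 lies at chr9:57697363-57697662 on the plus strand, Cyp1a2 at chr9:57683606-57683905 on the minus strand and Cyp1b1 at chr17:79715012-79715311 on the minus strand.
Cyp1a1: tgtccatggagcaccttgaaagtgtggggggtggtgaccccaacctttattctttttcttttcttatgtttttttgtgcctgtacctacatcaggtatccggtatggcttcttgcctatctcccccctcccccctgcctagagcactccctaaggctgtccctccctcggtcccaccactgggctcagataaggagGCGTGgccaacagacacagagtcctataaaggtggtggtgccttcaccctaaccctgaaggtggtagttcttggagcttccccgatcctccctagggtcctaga
Cyp1a2: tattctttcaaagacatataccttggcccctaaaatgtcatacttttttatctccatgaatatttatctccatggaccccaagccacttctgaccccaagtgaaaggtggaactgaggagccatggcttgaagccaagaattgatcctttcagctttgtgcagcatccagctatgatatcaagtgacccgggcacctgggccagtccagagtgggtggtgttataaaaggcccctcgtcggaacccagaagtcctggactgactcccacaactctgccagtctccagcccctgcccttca
Cyp1b1: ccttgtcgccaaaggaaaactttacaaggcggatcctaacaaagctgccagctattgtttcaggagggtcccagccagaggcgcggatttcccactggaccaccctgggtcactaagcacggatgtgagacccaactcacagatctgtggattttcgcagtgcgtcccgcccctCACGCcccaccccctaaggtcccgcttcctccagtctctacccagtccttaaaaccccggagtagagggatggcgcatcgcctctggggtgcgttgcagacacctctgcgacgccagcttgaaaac

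The Cyp1a1 window held 1 GCGTG, from -54 to -50 relative to the start, and the Cyp1b1 window held 1 on the opposite strand, from -76 to -72. The Cyp1a2 window held none. The longer form TNGCGTG, which contains the core, was in none of the 3 windows. A TATAAA box stood from -30 to -25 in Cyp1a1 and from -29 to -24 in Cyp1a2, and was not found in Cyp1b1. Of 32851 promoter windows of the same length, 32.4% held GCGTG, 5.07% held TNGCGTG and 13.6% held TATAAA on either strand. These are matches of letters alone, and enhancers farther from the start lie outside the windows.

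Without TCDD the 3 genes stood at very different levels. Per kb of exon, Cyp1a2 stood at 511 CPM in vehicle, Cyp1a1 at 0.596 CPM and Cyp1b1 at 0.0527 CPM. Cyp1a2 therefore made up 99.9% of the family's length-scaled level in vehicle.

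Cyp1a1, which encodes the inducible aryl hydrocarbon hydroxylase, rose at the lowest dose. Its vehicle mice had 0.979, 1.62, 1.65, 1.74 and 2.33 CPM. The mice given 0.03 μg/kg had 109, 115, 123, 134 and 237 CPM, and the groups did not overlap. At 0.1 μg/kg the values lay between 1004 and 1542 CPM with a median of 1405, and at 0.3 μg/kg between 3213 and 4420 CPM with a median of 3863. At 1 μg/kg they had reached 5363 to 6908 CPM. From there the groups overlapped, at 5289 to 8099 CPM for 3 μg/kg, 5624 to 7418 CPM for 10 μg/kg and 4746 to 6370 CPM for 30 μg/kg.

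Cyp1a2, which encodes the constitutive hepatic member, rose by a smaller fold from a higher level. The vehicle mice had 898, 900, 1026, 1088 and 1231 CPM, and the mice at 0.03 μg/kg had 2846, 3241, 3453, 3549 and 3759 CPM. All 5 treated mice were above all 5 controls. The medians then went through 6600 CPM at 0.1 μg/kg, 12144 at 0.3, 16870 at 1, 19654 at 3, 21905 at 10 and 21907 at 30. The highest single value, 27139 CPM, was in a mouse at 30 μg/kg.

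Cyp1b1, whose enzyme metabolises oestrogens and polycyclic hydrocarbons, was close to the limit of counting without TCDD. The vehicle libraries held 1, 2, 3, 7 and 11 reads of it, 24 in all, which is 0.0716 to 0.684 CPM. At 0.03 μg/kg the mice had 0.380 to 1.75 CPM, overlapping vehicle, with 2 of 5 mice above every control. At 0.1 μg/kg they had 0.792, 0.830, 0.891, 0.979 and 1.26 CPM, all above the controls. The values were 2.59 to 4.51 CPM at 0.3 μg/kg and 76.9 to 142 CPM at 1 μg/kg. They went on to 195 to 269 CPM at 3 μg/kg, 442 to 963 CPM at 10 μg/kg and 1313 to 2009 CPM at 30 μg/kg. From 0.1 to 0.3 μg/kg onward no group of mice overlapped the next lower one.

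**Figure D1:**
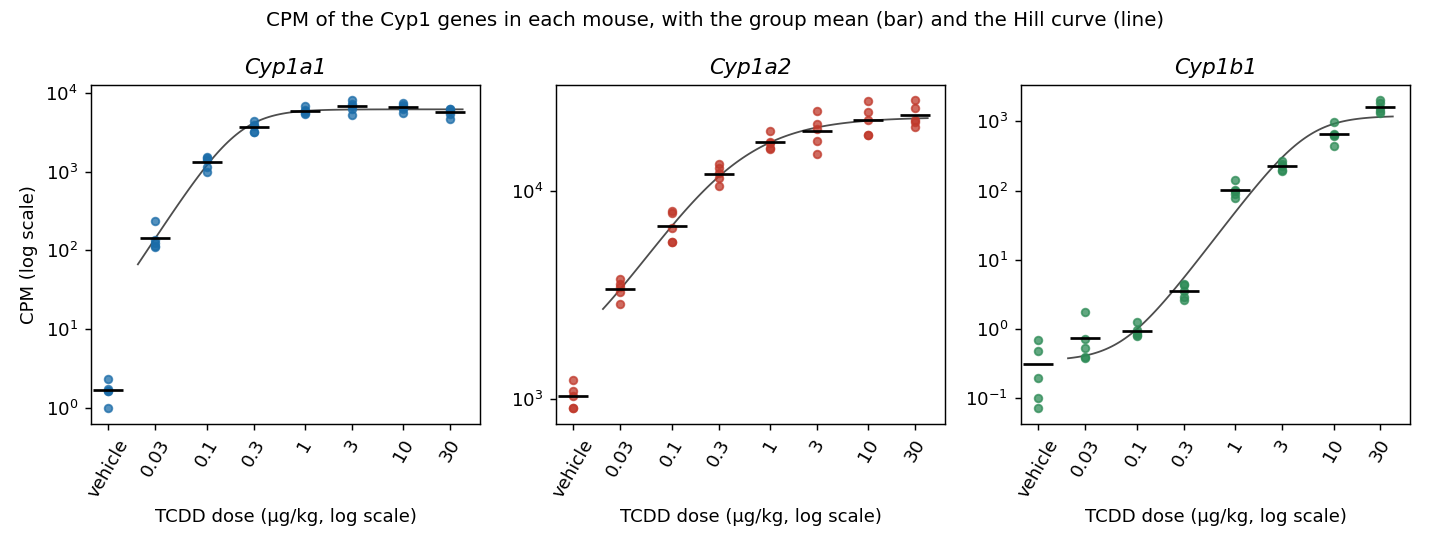
CPM of Cyp1a1, Cyp1a2 and Cyp1b1 in each of 5 mice per group (points) against TCDD dose on log axes, with the group mean (bar) and the fitted Hill curve (line); vehicle is drawn at the left. Cyp1a1 flattens from about 1 μg/kg. Cyp1a2 rises slowly from there, with 73.8% of its highest group mean at 1 μg/kg and 94.9% at 10 μg/kg. Cyp1b1 is still climbing between 10 and 30 μg/kg. Its curve runs above the group mean at 10 μg/kg and below it at 30 μg/kg.

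The first comparison was the onset, the lowest dose from which a gene was called at that and every higher dose. A gene was called when edgeR's quasi-likelihood test gave a Benjamini-Hochberg adjusted p under 0.05 over all genes tested and the fold change was at least 1.5. Cyp1a1 and Cyp1a2 both had their onset at 0.03 μg/kg, the lowest dose given. Either onset may lie below that dose, so the series cannot place or compare them. Cyp1a1 and Cyp1a2 were 2 of only 3 genes called higher at 0.03 μg/kg, 0.0195% of the genes tested. The other was Pcp4l1, named after its value was seen, with a log2 fold change of 0.94 (SE 0.17, edgeR adjusted p = 0.0164). Cyp1a1 had a log2 fold change of 6.42 there (SE 0.22, edgeR adjusted p = 3.54e-23), an 85.7-fold rise, against 3.28-fold for Cyp1a2. Within run 1 and run 2 of the title numbers alone, that of Cyp1a1 was 5.93 (SE 0.22) and 6.95 (SE 0.36).

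Cyp1b1 had its onset at 0.3 μg/kg, with a log2 fold change of 3.54 (SE 0.37, edgeR adjusted p = 1.53e-08). At 0.1 μg/kg its log2 fold change of 1.63 (SE 0.44) was not called, with an edgeR adjusted p = 0.293 and an unadjusted p of 0.000609 from the same fit. DESeq2 did call it there, with a log2 fold change of 1.66 and an adjusted p = 0.0173. The place of its onset at 0.1 or 0.3 μg/kg thus depended on the tool, and rests on 24 vehicle reads and 74 reads at 0.1 μg/kg.

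The share of all tested genes called higher was 0.0846% at 0.1 μg/kg, where 2 of the 3 members were called, and 0.403% at 0.3 μg/kg, where all 3 were. It was 2.15% at 1 μg/kg, 4.53% at 3 μg/kg, 13.6% at 10 μg/kg and 23.2% at 30 μg/kg, with all 3 members called at each. For 30 μg/kg against vehicle the log2 fold changes were 11.75 for Cyp1a1 (SE 0.27), 4.49 for Cyp1a2 (SE 0.15) and 12.37 for Cyp1b1 (SE 0.38). The folds of Cyp1a1 and Cyp1b1 at that dose were not told apart by the ratio test of the same mice. By level Cyp1b1 remained the lowest of the 3 per kb of exon, at 280 CPM beside 2067 for Cyp1a1 and 11471 for Cyp1a2. The fold of Cyp1b1 is imprecise because its denominator is 24 reads.

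The second comparison set each dose against the next lower one, to follow the rise and its end. From 0.03 to 0.1 μg/kg, where 0.039% of genes were called higher, Cyp1a1 rose 9.22-fold (log2 3.20, SE 0.18) and Cyp1a2 rose 2.00-fold (log2 1.00, SE 0.13). Cyp1b1 was not called for this step, with a log2 difference of 0.35 (SE 0.37). From 0.1 to 0.3 μg/kg all 3 were called among 0.0455% of genes, with 2.82-fold for Cyp1a1, 1.79-fold for Cyp1a2 and 3.75-fold for Cyp1b1.

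The step from 0.3 to 1 μg/kg separated Cyp1b1 from the others. It rose 28.3-fold (log2 4.82, SE 0.26, edgeR adjusted p = 3.23e-16), its largest step, where 0.228% of genes were called. On log axes of dose and CPM the slope of that step was 2.78 (SE 0.15), beside 1.20 (SE 0.19) for the step before and 0.73 (SE 0.14) for the step after. Cyp1a1 differed by 1.60-fold over the same step (log2 0.68, SE 0.17, edgeR adjusted p = 0.0682) and Cyp1a2 by 1.41-fold (log2 0.50, SE 0.13, edgeR adjusted p = 0.136), neither of them called. The groups of mice at 0.3 and 1 μg/kg did not overlap for either gene, and for Cyp1a1 the step was called with DESeq2 (adjusted p = 0.0136), with total counts as the scale (edgeR adjusted p = 0.0215) and with the run of title numbers as covariate (edgeR adjusted p = 0.0438).

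Above 1 μg/kg neither Cyp1a1 nor Cyp1a2 was called for any single step. From 1 to 3 μg/kg the log2 difference was 0.19 for both (SE 0.17 for Cyp1a1 and 0.13 for Cyp1a2). Cyp1b1 rose over that step by 2.22-fold (log2 1.15, SE 0.22, edgeR adjusted p = 0.0112), among 0.0585% of genes called higher. Its call was lost when any of 3 libraries was left out, namely replicate 2 or 5 at 1 μg/kg or replicate 3 at 3 μg/kg, with edgeR adjusted p = 0.0824, 0.0730 and 0.0603. Cyp1b1 rose again from 3 to 10 μg/kg by 2.93-fold, where 4.43% of genes were called, and from 10 to 30 μg/kg by 2.47-fold, where 10.6% were.

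**Figure D2:**
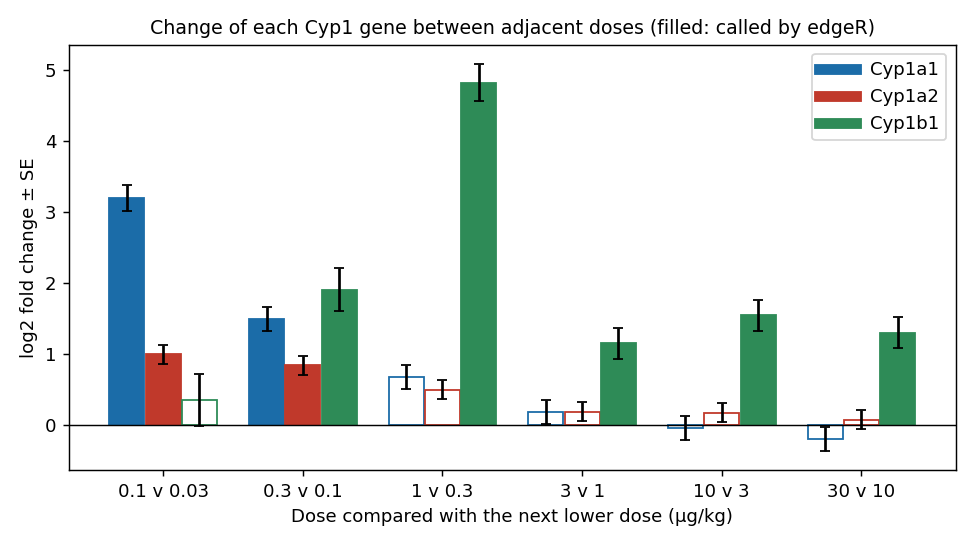
edgeR log2 fold change, with an SE derived from its F statistic, for each Cyp1 gene between adjacent treated doses. Filled bars are called steps and open bars the others. Cyp1b1 was called in 5 steps up to 30 μg/kg, and Cyp1a1 and Cyp1a2 in 2 steps each, up to 0.3 μg/kg.

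Between 1 and 30 μg/kg, where 20.3% of genes were called higher, Cyp1a1 differed by -0.05 on the log2 scale (SE 0.17, edgeR adjusted p = 0.823). Cyp1a2 was higher by 0.44 (SE 0.13, edgeR adjusted p = 0.00603), which is 1.36-fold and under the fold threshold. Cyp1b1 rose 16.1-fold (log2 4.01, SE 0.24, edgeR adjusted p = 7.01e-16). With total counts in place of the trimmed mean as the scale, the median of all genes shifted to 0.43 between these doses, and the log2 values were 0.35 for Cyp1a1, 0.84 for Cyp1a2, which was then called, and 4.41 for Cyp1b1. The direction of Cyp1a1 thus flipped with the scale, while the median of all genes was 0.03 on the first scale.

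The highest group mean was at 3 μg/kg for Cyp1a1 and at 30 μg/kg for Cyp1a2 and Cyp1b1. As a share of that mean, Cyp1a1 stood at 2.11% at 0.03 μg/kg, 19.4% at 0.1, 54.8% at 0.3 and 87.7% at 1. Cyp1a2 stood at 4.46% in vehicle already, and at 14.6%, 29.1%, 52.2% and 73.8% at the same doses. Cyp1b1 stood at 0.219% at 0.3 μg/kg, 6.22% at 1, 13.8% at 3 and 40.5% at 10. These shares depended on the scale. With total counts the highest Cyp1a1 mean was at 30 μg/kg as well, and at 0.3 μg/kg Cyp1a1 stood at 46.9% and Cyp1a2 at 37.7% of their highest means.

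**Figure D3:**
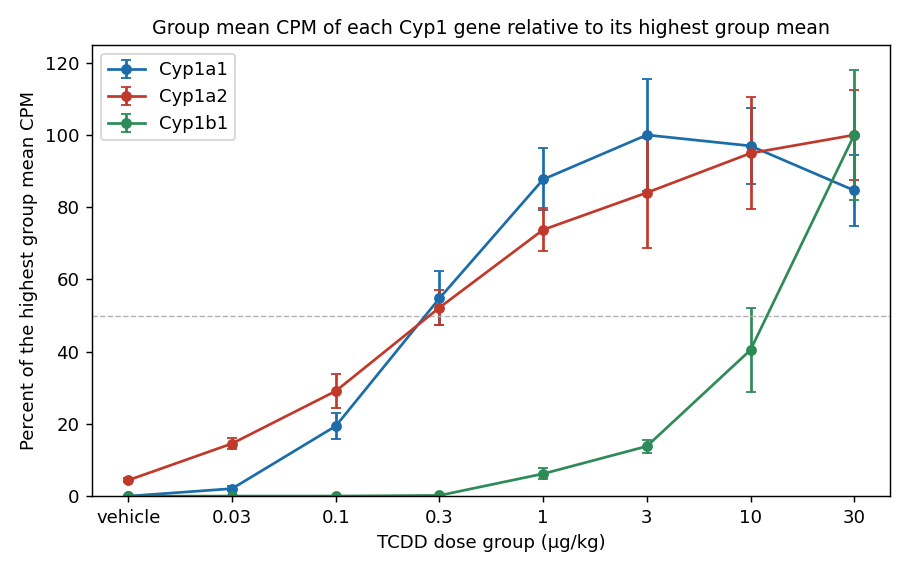
Group mean CPM with TMM scaling of each Cyp1 gene as a percent of its own highest group mean, by dose group, with bars for the SD over 5 mice and a dashed line at 50. Cyp1a1 and Cyp1a2 cross the line at about 0.3 μg/kg and Cyp1b1 between 10 and 30 μg/kg.

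A Hill curve with a free bottom, top, half-maximal dose and slope was fitted to the 40 mice for each gene. The curve describes CPM, so that its half-maximal dose is the middle of the CPM range, and its errors were taken on the log2 scale. The half-maximal dose of Cyp1a1 was 0.210 μg/kg (95% profile interval 0.175 to 0.255) with a slope of 1.94 (jackknife SE 0.14). That of Cyp1a2 was 0.308 μg/kg (0.226 to 0.447) with a slope of 0.90 (SE 0.06). The slopes differed by 1.03, with a 95% interval of 0.758 to 1.31, a difference computed after the data were examined. The half-maximal dose of Cyp1a2 was 1.47 times that of Cyp1a1 (95% jackknife interval 1.09 to 1.97) by the curves. By interpolation between group means, at 0.258 μg/kg for Cyp1a1 and 0.300 μg/kg for Cyp1a2, the ratio was 1.16 (0.761 to 1.77), an interval that includes equal doses. With the slope fixed at 1 the order turned, with 0.738 μg/kg for Cyp1a1 and 0.258 μg/kg for Cyp1a2. A Hill curve for log2 CPM itself, whose middle is that of the log range, gave 0.0268 and 0.0565 μg/kg. The order and distance of the 2 half-maximal doses thus depended on the curve.

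Both curves followed the mice closely, with a residual SD of 0.28 for Cyp1a1 and 0.19 for Cyp1a2 on the log2 scale, next to an SD between mice of a group of 0.28 and 0.19. The half-maximal dose of Cyp1a2 moved to 0.662 μg/kg, and that of Cyp1a1 to 0.255 μg/kg, when total counts were the scale.

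For Cyp1b1 the Hill curve gave a half-maximal dose of 5.36 μg/kg (2.93 to 11.8), but its residual SD of 0.77 exceeded the 0.51 between mice. The observed mean was 2.09 times the curve at 1 μg/kg and 1.41 times the curve at 30 μg/kg, but 0.650 times the curve at 0.3 μg/kg, 0.751 times at 3 and 0.721 times at 10. Interpolation gave 11.9 μg/kg (9.73 to 14.6), an unweighted fit on linear CPM gave 166 μg/kg, and leaving out the 30 μg/kg group gave 2.32 μg/kg. No top was reached within the doses given, so the half-maximal dose of Cyp1b1 is not settled by these data. Its ratio to that of Cyp1a1 was 25.5 by the curves (11.6 to 56.3) and 46.1 by interpolation (32.7 to 65.0), and both take the top from doses at which it was still rising.

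The ratio between 2 members in the same mouse needs no common scale across libraries, and asks whether they changed by different folds. The 3 pairs were tested at 7 doses against vehicle, 21 exact permutation tests that are 2-sided and can give no p under 0.00794. The log2 ratio of Cyp1a1 over Cyp1a2 was -9.22 ± 0.44 in vehicle (SD, n = 5), -4.61 ± 0.46 at 0.03 μg/kg and -1.51 ± 0.05 at 1 μg/kg. It was above vehicle in 5 of 5 mice at all 7 doses (exact permutation adjusted p = 0.0104 for each). At 1 and 3 μg/kg its SD was 0.05, so the 2 transcripts kept nearly 1 proportion from mouse to mouse.

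For Cyp1b1 over Cyp1a2, 5 of 5 mice at 0.1 μg/kg were below the vehicle mean, although the groups overlapped. The ratio fell by 1.14 there (exact permutation adjusted p = 0.0490). This call was lost with a prior count of 0.5 and when any of 9 of the 10 libraries was left out, and Cyp1b1 had at most 19 reads in those mice. The ratio was higher than vehicle from 1 μg/kg, by 4.07, and by 7.66 at 30 μg/kg (exact permutation adjusted p = 0.0104 for both). Cyp1a1 over Cyp1b1 went from 2.27 ± 1.18 in vehicle to 10.28 ± 0.37 at 0.1 μg/kg and back to 1.83 ± 0.31 at 30 μg/kg. At 30 μg/kg it did not differ from vehicle beyond the spread of the mice (difference -0.44, exact permutation adjusted p = 0.45).

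The same ratios were compared between treated doses, a test added after the data were examined. Cyp1a1 over Cyp1a2 rose from 0.03 to 0.1 μg/kg by 2.26, from 0.1 to 0.3 by 0.65 and from 0.3 to 1 by 0.18 on the log2 scale. It fell by 0.22 from 3 to 10 μg/kg and by 0.28 from 10 to 30 μg/kg (exact permutation adjusted p = 0.0119 and 0.0278). The last call was lost, with an exact permutation adjusted p = 0.0556, when any of 7 of the 10 libraries was left out, namely replicate 1, 2 or 3 at 10 μg/kg or replicate 2, 3, 4 or 5 at 30 μg/kg. Between 1 and 30 μg/kg it fell by 0.49, in 5 of 5 mice (exact permutation adjusted p = 0.0119).

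**Figure D4:**
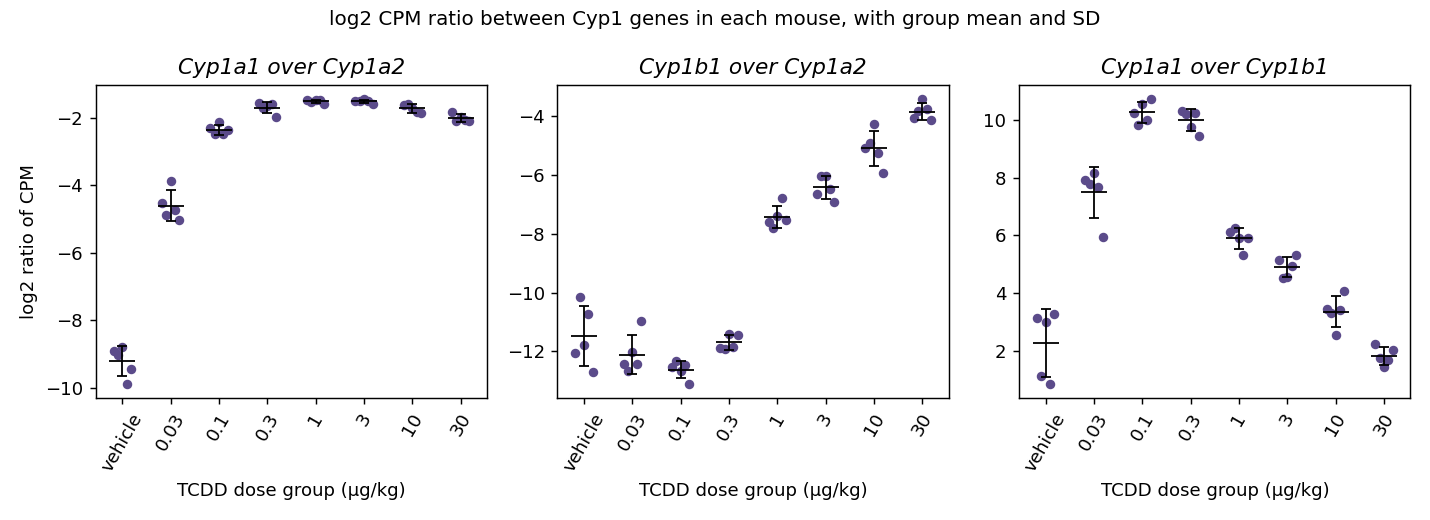
log2 ratio of CPM between pairs of Cyp1 genes in each mouse by dose group, with the mean and SD of 5 mice. Cyp1a1 over Cyp1a2 peaks at 1 and 3 μg/kg near -1.51, Cyp1b1 over Cyp1a2 climbs from 0.3 μg/kg, and Cyp1a1 over Cyp1b1 peaks at 0.1 μg/kg and returns to the vehicle range.

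The family as a whole took 0.0953% of counts in vehicle, 2.28% at 1 μg/kg and 3.96% at 30 μg/kg. Per kb of exon, the share of Cyp1a1 within the family went from 0.118% in vehicle to 20.2% at 1 and 3 μg/kg and 15.0% at 30 μg/kg. Cyp1b1 reached 2.04% ± 0.41 (SD, n = 5) at 30 μg/kg. Cyp1a2 remained the most abundant member at every dose, at 79.5% or more.

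Cyp1a1 and Cyp1a2 are close paralogs. Their annotated transcripts share an identical run of 137 bases, and 152 of the 1910 distinct stretches of 31 bases in Cyp1a2 also occur in Cyp1a1. Reads that lie wholly in shared sequence map to more than 1 place and are not in the gene counts of either. Cyp1b1 shared no run longer than 13 bases with either.

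Mice that were high in Cyp1a1 for their dose were also high in Cyp1a2. Across 40 mice, after the mean of the dose group was taken out, Pearson's r was 0.50 (adjusted p = 0.00648 from 100000 permutations within dose groups) and Spearman's rho was 0.63 (adjusted p = 0.00051 from the same permutations). Without the 2 mice farthest from the median of Cyp1a1, r was 0.64. Within the numbering runs of the titles r was 0.79 in the 19 libraries of run 1 and 0.34 in the 21 of run 2. For Cyp1b1 no such relation was found, with r of -0.21 and rho of -0.20 against Cyp1a1 (permutation adjusted p = 0.606 and 0.388) and r of -0.06 and rho of -0.02 against Cyp1a2 (permutation adjusted p = 0.724 and 0.889). Without the 2 farthest mice these r were -0.17 and -0.05. Within run 1 and run 2 they were -0.24 and -0.67 for Cyp1a1, and -0.13 and -0.48 for Cyp1a2.

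The genes whose log2 CPM followed each member most closely over the 40 libraries were found by Pearson's r, a description in which the libraries share dose groups. For Cyp1a1 they were Ugt1a9 (r of 0.93), Pcp4l1 (0.91), Htatip2 (0.90), Nptx1 (0.85) and Fbxw9 (0.83). Ugt1a9 encodes a UDP-glucuronosyltransferase, and the genes of its locus share exons, so its counts are uncertain. For Cyp1a2 they were Htatip2 (0.96), Pcp4l1 (0.96), Ugt1a9 (0.96), Nptx1 (0.94) and Pmm1 (0.92), of which 4 are on both lists. For Cyp1b1 they included Exoc3, Ism2, Ahrr and Insl6, with r from 0.96 to 0.97. Other genes with r over 0.9 numbered 3 for Cyp1a1, 7 for Cyp1a2 and 64 for Cyp1b1. Nptx1, Ism2 and Insl6 had at most 3, 7 and 4 reads in any vehicle library, so their low values are imprecise. Cyp1a1 and Cyp1a2 had r of 0.97 with each other, and Cyp1b1 had 0.74 with Cyp1a1 and 0.86 with Cyp1a2.

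Ahrr, which encodes the repressor of the receptor, had at most 3 reads in any vehicle library, with a mean of 0.112 CPM. It stood at 17.3 CPM at 1 μg/kg, 67.6 CPM at 10 μg/kg and 67.1 CPM at 30 μg/kg. Over that last step Cyp1b1 rose 2.47-fold. At 0.3 μg/kg Ahrr stood at 1.86 CPM, beside 3.57 CPM for Cyp1b1.

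Other known targets of the receptor were compared through a list of 12 genes, of which 11 could be tested. None of the 11 was called at 0.03 μg/kg by edgeR or DESeq2 (2 had an unadjusted p under 0.05 in edgeR's fit). Then 1 was called higher at 0.1 μg/kg, 4 at 0.3, 7 at 1, 8 at 10 and 9 at 30, where 0.0846%, 0.403%, 2.15%, 13.6% and 23.2% of all genes tested were called higher. None was called lower at these doses, but 1 was at 30 μg/kg when replicate 3 or replicate 4 there was left out. At that dose 18.9% of all genes were called lower. Ugt1a6b had a log2 fold change of -0.53 there (SE 0.16, edgeR adjusted p = 0.00438), under the fold threshold. The first gene called higher was Cyp2a5, another P450, with a log2 fold change of 1.07 (SE 0.23, edgeR adjusted p = 0.0431) at 0.1 μg/kg. At 1 μg/kg Nqo1, a quinone reductase, had a log2 fold change of 1.81 (SE 0.22), and Ahrr had 7.18 (SE 0.47). Tiparp, an ADP-ribosyltransferase that limits receptor signalling, was not called at 1 μg/kg with 0.75 (SE 0.27) but rose by 4.83 (SE 0.28) at 30 μg/kg. The median log2 fold change of the tested list was 0.96 at 1 μg/kg and 2.45 at 30 μg/kg, beside 0.00 and 0.03 over all genes. Aldh3a1, an aldehyde dehydrogenase, was too low to test, at 0.508 CPM at 30 μg/kg and with no reads in vehicle.

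Of 5 genes of the receptor complex (Ahr, Arnt, Hsp90aa1, Hsp90ab1, Ptges3), none was called at 30 μg/kg by edgeR or DESeq2 (1 had an unadjusted p under 0.05), although 2 were called higher with total counts as the scale. At that dose 23.2% of all genes were called higher and 18.9% lower. At 10 μg/kg, where 13.6% of all genes were called higher, Ahr alone of the 5 was called, at a log2 fold change of 0.79 (SE 0.27, edgeR adjusted p = 0.0242). Ahr stood at 39.6 ± 3.03 CPM in vehicle and 58.4 ± 27.2 CPM at 30 μg/kg (SD, n = 5), where it was called higher only without replicate 5 among the libraries left out at that dose.

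The P450 partners, which supply electrons and haem to microsomal P450s, moved in different ways. Por, the P450 reductase, rose from 1 μg/kg and reached 908 ± 303 CPM at 30 μg/kg from 216 ± 48.4 in vehicle (log2 2.07, SE 0.19). Cyb5a, cytochrome b5, was higher by 0.83 on the log2 scale (SE 0.09) at 1 μg/kg and by 0.28 (SE 0.09) at 30 μg/kg, where it was not called. Cyb5r3, the reductase of cytochrome b5, fell by 1.77 (SE 0.16) at 30 μg/kg, where 18.9% of all genes were called lower. Alas1, which makes the first intermediate of haem, was called at 30 μg/kg with a log2 fold change of 2.42 (SE 0.52).

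**Figure D5:**
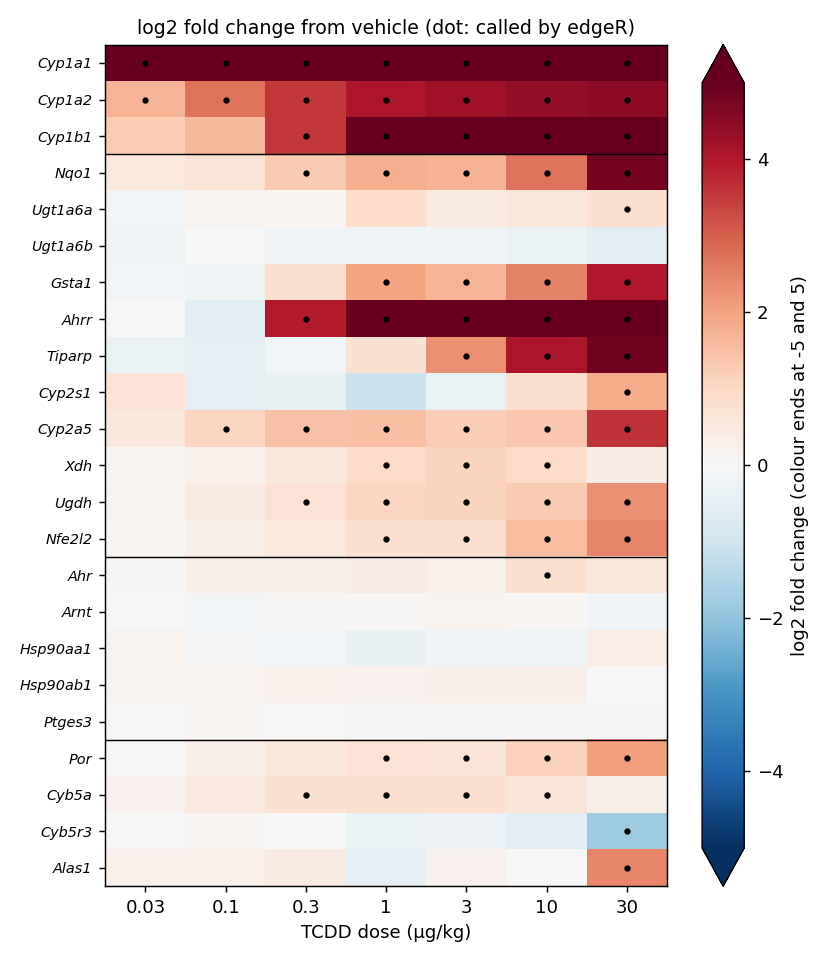
log2 fold change from vehicle at each dose for the Cyp1 genes (top block), the tested receptor targets, the receptor complex and the P450 partners (bottom block), with a dot where edgeR called the gene. The colour scale ends at -5 and 5, which Cyp1a1 passes at every dose, Cyp1b1 and Ahrr from 1 μg/kg.

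Of the 3 protein-coding neighbours on each side of the Cyp1a pair, Cplx3 and Lman1l were too low to test, and none of Csk, Edc3, Clk3 and Arid3b was called at 1 or 30 μg/kg by edgeR or DESeq2 (1 and 2 of them had an unadjusted p under 0.05). Around Cyp1b1, none of Qpct, Cdc42ep3, Rmdn2, Atl2, Hnrnpll and Galm was called at 1 μg/kg by either tool (1 had an unadjusted p under 0.05), where Cyp1b1 had risen 329-fold. At 30 μg/kg Cdc42ep3 was higher by 0.99 (SE 0.33) and Galm fell by 0.82 (SE 0.10), and Galm was not called with total counts as the scale. Qpct was called lower at 3 and 10 μg/kg, by -1.07 (SE 0.23) and -1.22 (SE 0.23). Of all genes tested, 2.15% were called higher and 0.637% lower at 1 μg/kg, and 23.2% and 18.9% at 30 μg/kg. At 3 and 10 μg/kg, 2.22% and 8.13% were called lower.

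Markers of other cell types were set beside the Cyp1 genes at 1 and 30 μg/kg, where 2.15% and 23.2% of all genes were called higher and 0.637% and 18.9% lower. At 1 μg/kg edgeR and DESeq2 called none of 6 stellate cell, 6 endothelial, 4 lymphocyte, 4 cholangiocyte and 2 tested neutrophil markers, of which 1, 3, 1, 1 and 0 had an unadjusted p under 0.05 in edgeR's fit. Of 6 macrophage markers 2 were called higher at 1 μg/kg and 6 at 30 μg/kg, and their summed level at 1 μg/kg was 196 to 219 CPM. Of 6 stellate cell markers 5 were called higher at 30 μg/kg, when their sum went to between 465 and 1051 CPM from between 155 and 222 CPM in vehicle. Of 6 endothelial markers 4 were called higher at 30 μg/kg, with sums of 135 to 181 CPM in vehicle and 242 to 328 CPM at that dose. The 4 lymphocyte markers and the 2 tested neutrophil markers were all called higher at 30 μg/kg, from sums of 4.79 to 10.8 CPM and of at most 1.04 CPM in vehicle, where Ly6g had 3 reads or fewer. Of 4 cholangiocyte markers 3 (Krt19, Krt7, Epcam) were called higher and Sox9 lower at 30 μg/kg. Their sum was 14.4 to 19.3 CPM in vehicle and 15.9 to 95.7 CPM at that dose, where replicate 2 alone was above 21.6 CPM. Without replicate 2 the other 4 mice had 15.9 to 21.6 CPM, which overlaps vehicle, and 2 of the 3 (Krt7 and Epcam) were called higher. Leaving out replicate 5 at 30 μg/kg left 2 of the 4 endothelial calls, 5 of the 6 macrophage calls and 3 of the 4 lymphocyte calls. Without replicate 1, 3 endothelial and 5 macrophage calls were left, and without replicate 4, 3 lymphocyte calls. The calls lost were Timd4 for macrophages and Cd3e for lymphocytes. Of the mean lymphocyte sum of 7.27 CPM in vehicle and 31.6 CPM at 30 μg/kg, Ptprc alone made 5.29 and 26.4 CPM. Ptprc is expressed by leukocytes in general, so most of that sum does not mark lymphocytes in particular. Cd3e, Cd79a and Ms4a1 had means of 0.288, 1.08 and 0.617 CPM in vehicle and 0.884, 2.73 and 1.61 CPM at 30 μg/kg. Of the hepatocyte markers 2 were called lower at 1 μg/kg and 4 at 30 μg/kg. The part of these cell types in the levels of the Cyp1 genes was not tested.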

How the data were processed

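Liver RNA of 40 mice was sequenced in 8 dose groups, taken from the sample labels. Replicate numbers follow the order of the records and pair no mice. The authors deposited raw counts per gene from STAR 2.7.3a, and the submitters' processing notes also name Trimmomatic 0.39 and FastQC 0.11.7. The genome builds GRCm39 and mm10 are both named without a role, so the build behind the counts was not settled. The unstranded counts were used, since the first strand setting held 50.0% to 50.3% of stranded counts, and overlapping genes are therefore uncertain. Rows for unmapped, multi-mapping, featureless and ambiguous reads were left out; 71.3% to 80.8% of reads were in genes. The authors also deposited a log2 variance-stabilised table of 23120 genes, which was used in an alternative test alone.

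Counts were fitted in R 4.3.3 with edgeR 4.0.16 (filterByExpr with minimum count 10 and total 15, TMM scaling, quasi-likelihood test, 1 mean per dose, no covariate, Benjamini-Hochberg over 15373 genes). The SE given with an edgeR log2 fold change is the size of that change divided by the square root of the test's F statistic. It is an approximation, since the quasi-likelihood test itself gives no SE. CPM values were scaled by TMM, and a prior count of 2 entered log2 CPM. Exon lengths and neighbours came from GENCODE M21, which named 52083 of 55359 identifiers. Hill curves were fitted after log2(CPM + 0.1) of both sides with Python 3.11.15 and scipy 1.17.1. Curve fits and the edgeR test were tried on simulated data. The simulated curves had the Hill form and less scatter than the Cyp1b1 mice, so they do not check the Cyp1b1 fit. Alternatives were DESeq2 1.42.0, limma 3.58.1 on the deposited log2 values, other scalings, filters, priors and pseudocounts, title-number runs (numbers to 27, 19 libraries, and from 28, 21 libraries) and leaving out each library. Members and lists were chosen with earlier results of these data known. Named genes were the members, the listed genes, 3 protein-coding neighbours a side and the 5 genes with the highest r to each member; Pcp4l1 at 0.03 μg/kg was named after its value was seen. Some genes that these rules name are not reported here. Trf stands for transferrin in the hepatocyte list. The edgeR p-values weigh a difference against the spread between mice of a group, estimated over all 8 groups. The permutation p-values come from rearranging the mice.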

Additional observations from a re-analysis of the deposited data

Results flagged for a closer look

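Among 24 sets of 5 mice (3 genes in 8 groups), 2 held a mouse far from the other 4, and chance flags about 1 in 20 such sets. Replicate 3 at 0.03 μg/kg had 237 CPM of Cyp1a1, where the next highest mouse had 134. Replicate 5 at 0.03 μg/kg had 1.75 CPM of Cyp1b1, from 26 reads, where the next highest had 0.713. They are different mice of the same group. Leaving out either mouse changed no call at that dose.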

How the results depend on the processing

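Calls against vehicle kept their direction and side of the threshold in 208 of 209 alternative values and in all 210 that left out 1 library; the exception was Cyp1b1 at 0.1 μg/kg, called by DESeq2 (1.66). Between doses, of 189 alternative values 8 lost a call, 6 gained one and 8 changed sign. For 0.3 to 1 μg/kg Cyp1a1 was called with total counts (0.75), run as a covariate (0.71) and DESeq2 (0.67). Cyp1a2 was not called in run 1 alone (0.90) for 0.03 to 0.1 μg/kg, nor for 0.1 to 0.3 μg/kg in run 1 (0.97), run 2 (0.77) or limma on the deposited table (0.85). Cyp1a2 from 1 to 30 μg/kg was called without a fold threshold (0.44), with total counts (0.84) and in run 2 (0.59). Cyp1b1 was not called in run 1 or run 2 for 0.1 to 0.3 μg/kg (1.62 and 2.05) or for 1 to 3 μg/kg (1.30 and 0.94). Runs alone hold fewer mice. Uncalled steps changed sign for Cyp1a1 in run 1 from 1 to 3 (-0.030) and 3 to 10 μg/kg (0.10), with total counts from 3 to 10 (0.086), 10 to 30 (0.084) and 1 to 30 μg/kg (0.35) and in run 2 from 1 to 30 μg/kg (0.081), for Cyp1a2 in run 1 from 1 to 3 μg/kg (-0.048), and for Cyp1b1 in run 2 from 0.03 to 0.1 μg/kg (-0.0042).

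Leaving out 1 library gave ranges of -0.12 to 0.025 (Cyp1a1, 3 to 10 μg/kg), -0.12 to 0.0041 (Cyp1a1, 1 to 30), -0.012 to 0.16 (Cyp1a2, 10 to 30) and 1.07 to 1.30 (Cyp1b1, 1 to 3). For log2 ratios the ranges were -0.010 to 0.025 (Cyp1a1 over Cyp1a2, 1 to 3), -0.33 to -0.24 (the same, 10 to 30), 0.73 to 1.33 (Cyp1a1 over Cyp1b1, 10 against vehicle), -1.45 to -0.81 and -0.52 to 0.12 (Cyp1b1 over Cyp1a2, 0.1 and 0.3 against vehicle). With 4 mice against 5 the smallest p is larger, which by itself can end a call. With a prior count of 0.5 the last pair became -0.77 and 0.24, and in run 2 the second was 0.15. Cyp1a1 over Cyp1a2 in run 2 was 5.12 at 0.03 and 7.35 at 0.1 μg/kg.

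Half-maximal doses in μg/kg moved outside their intervals as follows. Cyp1a1 went to 0.258 by interpolation, 0.0268 with a Hill curve for log2 CPM itself, 0.738 with a slope of 1 and 0.255 with total counts. Cyp1a2 went to 0.0565 with that curve and 0.662 with total counts. Cyp1b1 went to 11.9 by interpolation, 166 on linear CPM, 0.644 with that curve and 2.32 without the 30 μg/kg group, and reached the end of the search at 300 μg/kg with a slope of 1, which gives no value. With total counts 2 receptor complex genes were called higher and 0 Cyp1b1 neighbours lower at 30 μg/kg. No paired analysis was possible because replicate numbers are in record order and mark no shared animal or day. Depth limits Cyp1b1 below 0.3 μg/kg, where libraries held 1 to 26 reads. The causes of these shifts were not tested.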
